A study of Rattus norvegicus with 16 samples.

Results

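The 7 transcripts described here encode or are listed with aldehyde dehydrogenases of the Aldh1, Aldh2 and Aldh3 families, measured in liver of male Sprague-Dawley pups on postnatal day 21. They are Aldh1a1, NM_017272 (a RefSeq transcript listed as a member of the Aldh1a family and called here by that number), Aldh1b1, Aldh1l1, Aldh2, Aldh3a1 and Aldh3a2. The set was chosen by the high values of Aldh1a1 and NM_017272 in group M, selected on the contrast of M with C. The values of every member in M against C are therefore a description and carry no test. The same holds for Aldh1a1 and NM_017272 wherever M is compared. The 7 members have 8 probes among 26896 transcripts on the array. Of the 7, 6 were among the 13146 transcripts bright enough to be tested, and Aldh3a1 was not.

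The pups came from dams that were dosed through gestation and lactation and that kept their own litters. In the AhR group the dams received agonists of the aryl hydrocarbon receptor (non-ortho PCBs, dioxins and dibenzofurans) at 1.8 ng/kg/day in TCDD toxic equivalents. Dams of the C group received corn oil, the vehicle of the exposed groups. The 0.5M and M groups received 1 mixture of organochlorine pesticides, PCBs and methylmercury at doses of 0.5 and 1.0 mg/kg/day. Each group had 4 two-colour Agilent arrays, and each array held liver RNA pooled at random from 2 pups, which makes 8 pups per group. The liver was read in Cy5 and a common reference RNA for rat, made from cell lines, in Cy3. Each value is thus the log2 ratio of liver to reference for a probe, and levels of different probes are not compared. Replicates 1 and 2 of every group lay on slide 1, and replicates 3 and 4 lay on slide 2. The labels do not give the litters of the pups. Arrays that shared a litter would make the p-values below too small.

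Aldehyde dehydrogenases oxidise aldehydes to carboxylic acids with NAD+ or NADP+. In the liver they clear acetaldehyde made from ethanol, aldehydes from lipid peroxidation and fatty aldehydes, and the Aldh1a enzymes turn retinal into retinoic acid. Aldh3a1 is known in rat liver as a gene induced through the aryl hydrocarbon receptor, and phenobarbital is known to raise a cytosolic Aldh1a enzyme in some rat strains.

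The RefSeq table of the GRCr8 assembly held a promoter for 4 of the members, Aldh1a1, Aldh1b1, Aldh1l1 and Aldh3a2. Of these 4, those of Aldh1a1, which was highest in M against C, and of Aldh3a2, whose values varied least, are shown. The Aldh1a1 window lies at chr1:227537370-227537669 on the plus strand and the Aldh3a2 window at chr10:46448286-46448585 on the minus strand. Each runs 5′ to 3′ from 250 bases before the start to 50 bases after it, and capitals mark the motif matches. For Aldh1a1 that start lies within the span listed for the gene, chr1:227426939-227579497, and the beginning of that span was not searched.
Aldh1a1: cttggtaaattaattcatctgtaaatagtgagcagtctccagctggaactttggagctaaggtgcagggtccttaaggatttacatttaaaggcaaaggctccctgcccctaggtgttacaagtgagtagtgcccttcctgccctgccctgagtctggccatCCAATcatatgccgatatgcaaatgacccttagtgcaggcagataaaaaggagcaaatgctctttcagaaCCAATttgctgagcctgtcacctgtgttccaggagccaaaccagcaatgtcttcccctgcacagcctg
Aldh3a2: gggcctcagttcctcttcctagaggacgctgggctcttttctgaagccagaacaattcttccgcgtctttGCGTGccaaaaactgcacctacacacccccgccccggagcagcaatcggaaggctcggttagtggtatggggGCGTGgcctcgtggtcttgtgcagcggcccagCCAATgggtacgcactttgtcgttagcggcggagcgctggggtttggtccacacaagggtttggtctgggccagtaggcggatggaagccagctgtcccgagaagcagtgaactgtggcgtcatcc
The motifs searched on both strands were GCGTG, the core bound by the aryl hydrocarbon receptor, AGGTCA, an element of nuclear receptors, TGACNNNGC, the antioxidant response element, CCAAT and TATAAA. The Aldh1a1 window held CCAAT with its first base at −88 and at −18 from the start, and it held none of the other motifs. The Aldh3a2 window held GCGTG at −180 and −108 and CCAAT at −76, all on the strand of the gene. Aldh1b1 and Aldh1l1 held CCAAT alone, on the opposite strand. Of all 33469 promoters in the table, 29.7% held GCGTG, 37.5% held CCAAT, 16.2% held AGGTCA, 12.1% held TGACNNNGC and 14.2% held TATAAA.

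The arrays differed in ways that touch the members. Between 7082 and 13824 of 30367 probes were well above background in Cy5 on the arrays of slide 1 and between 13006 and 15686 on those of slide 2. All 9 hepatocyte markers were well above background on all 16 arrays. Replicate 2 of M and replicate 4 of 0.5M stood apart. The mean of 8 measured skeletal muscle markers (16 listed) was 4.01 and 5.03 log2 units above the slide mean on them, against −1.04 to 0.001 on the other 14 arrays. They were also highest in the 10 stellate cell and fibroblast markers, at 0.99 and 0.83. Replicate 1 of M and replicate 2 of AhR were highest in the 4 measured exocrine pancreas markers (13 listed), at 1.19 and 0.51. Replicate 2 of C was highest in the 3 measured fat markers (7 listed), at 0.93. In whole-liver RNA, fewer cells of a type and less RNA per cell cannot be told apart.

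**Figure D1:**
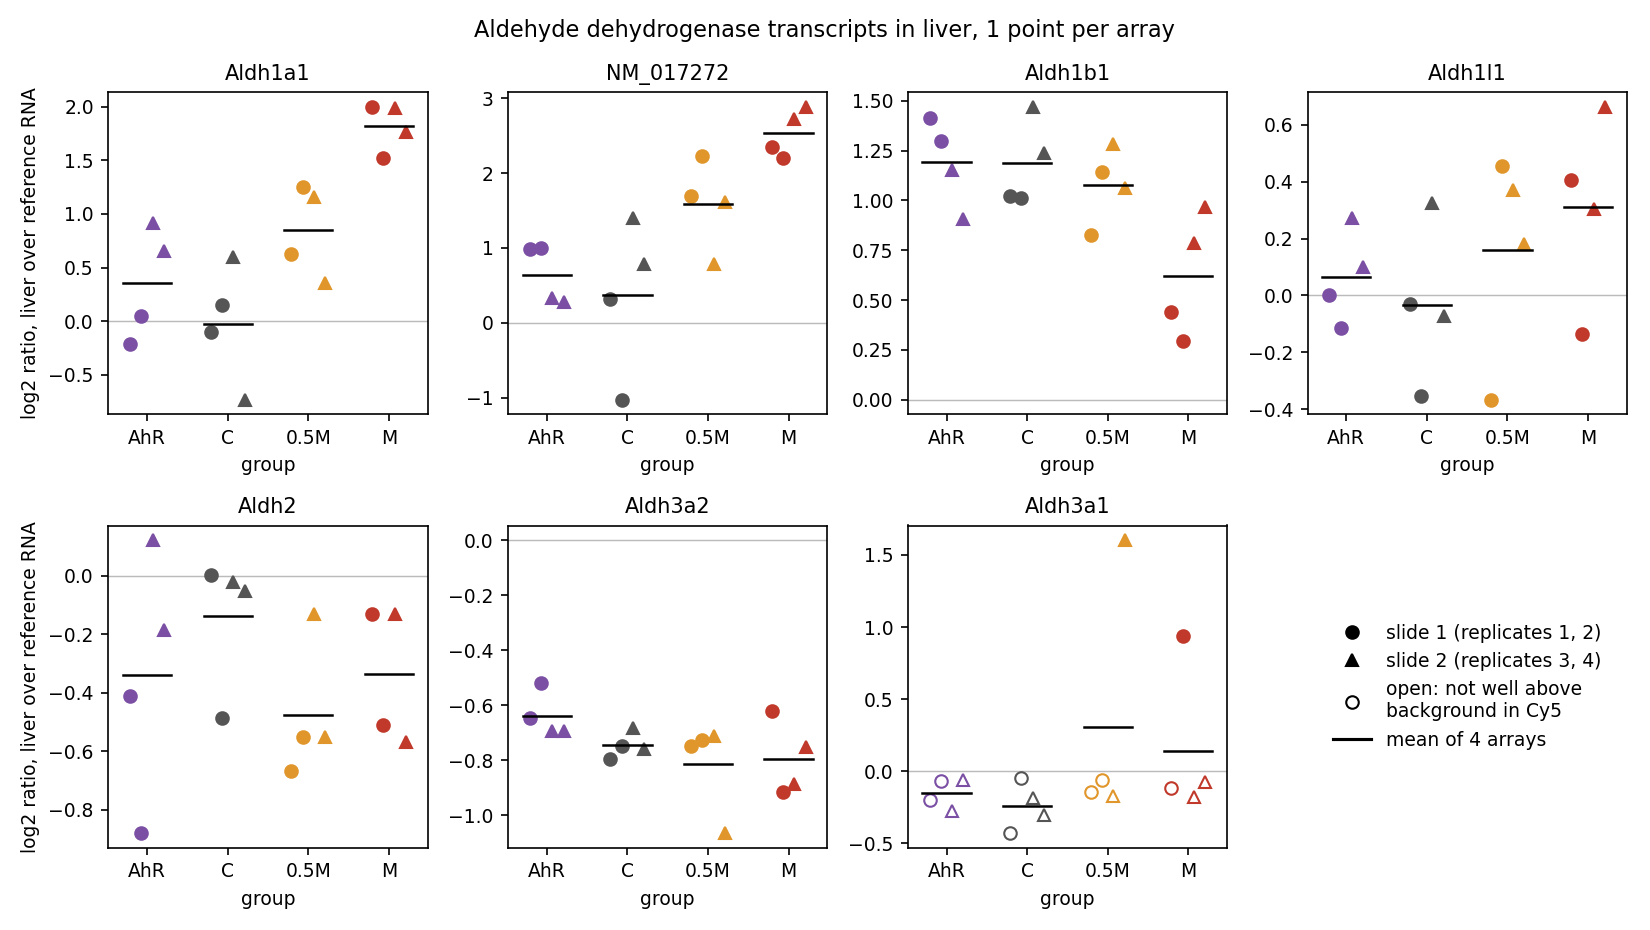
Log2 ratio of liver to reference of the 7 members on each of the 16 arrays, in the groups AhR, C, 0.5M and M, with a panel per transcript whose vertical axis has its own range. Points are arrays (circles slide 1, triangles slide 2, open where not well above background) and bars are group means. The 4 M arrays of Aldh1a1 all lie above the arrays of the other groups, and Aldh3a1 is high on replicate 2 of M and replicate 4 of 0.5M.

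Aldh1a1, a cytosolic enzyme that oxidises retinal, was highest in M, and the group means were in the order C, 0.5M and M. On replicates 1 to 4 its log2 ratio was −0.21, 0.045, 0.92 and 0.66 in AhR, −0.10, 0.15, 0.60 and −0.73 in C, 0.63, 1.25, 1.16 and 0.35 in 0.5M, and 1.999, 1.52, 1.99 and 1.76 in M. All M arrays lay above all arrays of the other groups, and AhR overlapped with both C and 0.5M. The means were 0.35 ± 0.52 in AhR, −0.022 ± 0.55 in C, 0.85 ± 0.43 in 0.5M and 1.82 ± 0.23 in M (SD, n = 4 each). The 2 spots of the probe differed by a median of 0.055 log2 units over the arrays.

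Aldh1a1 was 1.84 ± 0.28 log2 units higher in M than in C (SE), a fold of 3.58, and the difference was 1.74 on slide 1 and 1.94 on slide 2. Its lowest M array and its lowest 0.5M array were those high in muscle markers. M exceeded C by 1.897 without these arrays and by 1.816 without the 5 arrays high in markers of another tissue. M exceeded 0.5M by 0.97 ± 0.28, or 0.587 without the 5 arrays, and AhR by 1.465 ± 0.28, with 1.841 on slide 1 and 1.089 on slide 2. These are descriptions of the values that chose the gene.

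Against C, which also entered the contrast that chose the members, Aldh1a1 was 0.87 ± 0.28 log2 units higher in 0.5M, with 3 of 4 arrays above the highest C array. The difference was 0.579 without replicate 4 of C and 1.229 without the 5 arrays high in markers of another tissue. On all arrays it did not pass the limma test adjusted over all transcripts (adjusted p = 0.649, 95% interval 0.28 to 1.46). The difference of 0.5M from AhR was 0.495 ± 0.28 (interval −0.095 to 1.085, adjusted p = 0.613), 1.022 on slide 1 and −0.033 on slide 2, and it was 0.315 to 0.707 when an array was left out. In AhR against C it was 0.375 ± 0.28 (interval −0.22 to 0.965, adjusted p = 1), and its sign differed between the slides, at −0.105 on slide 1 and 0.85 on slide 2. It was 0.084 without replicate 4 of C and 0.567 without replicate 3 of C.

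NM_017272 had the same group order of C, 0.5M and M with a wider spread. Its log2 ratio on replicates 1 to 4 was 0.98, 0.99, 0.33 and 0.275 in AhR, 0.31, −1.03, 1.40 and 0.78 in C, 1.69, 2.23, 0.79 and 1.61 in 0.5M, and 2.34, 2.21, 2.72 and 2.89 in M. All 4 M arrays lay above every C and AhR array, and 3 of the 4 lay above every 0.5M array. Replicate 2 of C, the array with high fat markers, was the lowest of the 16. Means were 0.645 ± 0.40 in AhR, 0.37 ± 1.03 in C, 1.58 ± 0.595 in 0.5M and 2.54 ± 0.32 in M (SD, n = 4 each). The 2 spots of its probe differed by a median of 0.13 log2 units and by 0.776 at most.

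The transcript was 2.17 ± 0.40 log2 units higher in M than in C, a fold of 4.50, with 2.63 on slide 1 and 1.71 on slide 2. Without the arrays high in muscle markers this was 2.267, and without replicate 2 of C it was 1.688. M exceeded 0.5M by 0.96 ± 0.40, with 0.312 on slide 1 and 1.6 on slide 2, and by 1.47 without the 5 arrays high in markers of another tissue. It exceeded AhR by 1.89 ± 0.40, with 1.285 on slide 1 and 2.502 on slide 2.

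In 0.5M against C the difference of NM_017272 was 1.21 ± 0.40 (interval 0.36 to 2.07, adjusted p = 0.657, limma), 2.32 on slide 1 and 0.11 on slide 2. Without replicate 2 of C it was 0.731, and without the 5 arrays high in markers of another tissue it was 0.62. Without replicate 3 of C it was 1.566, so the size depended on which C array was left out. Slide 2 held replicate 3 of C at 1.40 and replicate 3 of 0.5M at 0.79, and slide 1 held replicate 2 of C at −1.03. The cause of the gap between the slides was not tested. In 0.5M against AhR the difference of NM_017272 was 0.94 ± 0.40 (adjusted p = 0.513), with 3 of 4 0.5M arrays above the highest AhR array. In AhR against C it was 0.28 ± 0.40 (adjusted p = 1), 1.35 on slide 1 and −0.79 on slide 2.

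**Figure D2:**
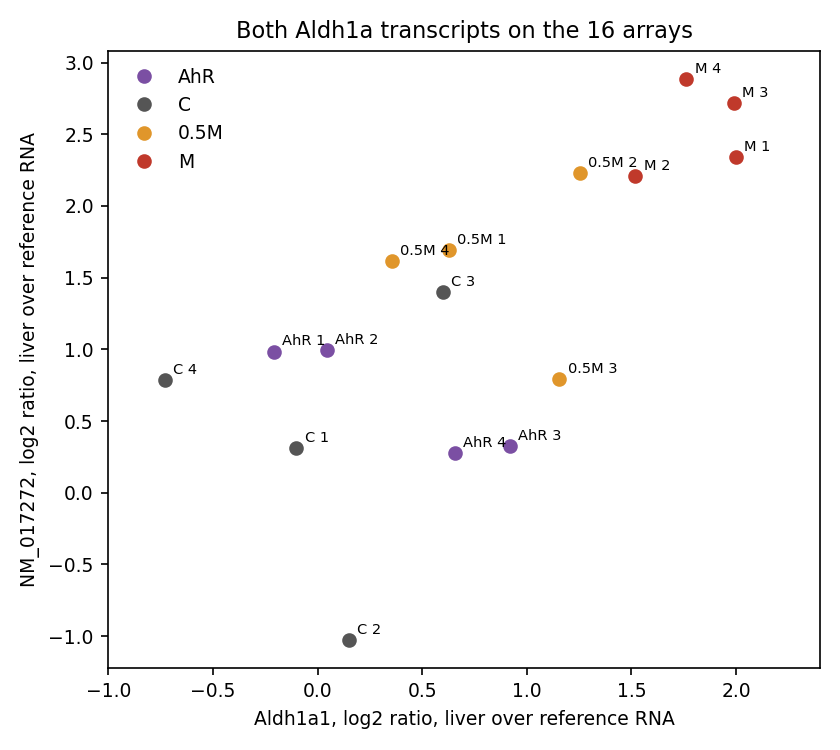
Log2 ratio of NM_017272 against that of Aldh1a1 on the 16 arrays, with a point per array marked by group and replicate. The 4 M arrays stand at the upper right, and the C arrays run from −1.03 to 1.40 on the axis of NM_017272.

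The order of arrays within a group was not the same for both transcripts. The same array was highest for both in 2 of the 4 groups and lowest for both in 1 of the 4. Both transcripts have a single probe on the array, and whether these probes also bind related transcripts was not tested.

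Aldh1b1, a mitochondrial enzyme that oxidises acetaldehyde and retinal, had its lowest group mean in M. Its log2 ratio on replicates 1 to 4 was 1.41, 1.30, 1.15 and 0.91 in AhR, 1.02, 1.01, 1.47 and 1.24 in C, 0.83, 1.14, 1.28 and 1.06 in 0.5M, and 0.44, 0.29, 0.79 and 0.965 in M. All M arrays lay below all C arrays, and 3 of the 4 lay below all arrays of AhR and of 0.5M. The 2 spots of its probe differed by a median of 0.276 log2 units, the largest among the members, and by 0.524 at most. The difference of M from C was −0.56 ± 0.14 log2 units. It was −0.479 without the arrays high in muscle markers and −0.395 without the 5 arrays high in any marker of another tissue.

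Against 0.5M, Aldh1b1 was −0.46 ± 0.14 in M (adjusted p = 0.502), and against AhR it was −0.57 ± 0.14 (adjusted p = 0.159), so neither passed the limma test. The adjusted p for M against AhR ranged from 0.0738 to 1 over the alternative settings, and the difference was −0.989 on slide 1 and −0.156 on slide 2. Without the 5 arrays high in markers of another tissue, the differences of M from 0.5M and from AhR were −0.263 and −0.31. Beside this, the mean of the 9 periportal hepatocyte markers was −0.31 to −0.066 on the M arrays. It was −0.084 to 0.22 in C, −0.127 to 0.191 in 0.5M and −0.082 to 0.098 in AhR, all overlapping with M. The part of these markers in the result was not tested. In 0.5M and AhR against C the differences of Aldh1b1 were −0.106 ± 0.14 (adjusted p = 0.910) and 0.009 ± 0.14 (adjusted p = 1).

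Aldh2, the mitochondrial enzyme that clears acetaldehyde, showed small differences. Its log2 ratio on replicates 1 to 4 was −0.41, −0.88, 0.12 and −0.185 in AhR, 0.001, −0.49, −0.021 and −0.051 in C, −0.67, −0.55, −0.13 and −0.55 in 0.5M, and −0.13, −0.51, −0.13 and −0.57 in M. Replicate 2 of C stood below the other C arrays, and the groups overlapped. In 0.5M against C the difference was −0.34 ± 0.165, with 3 of 4 arrays below the lowest C array (interval −0.685 to 0.014, adjusted p = 0.748). Its difference of M from C was −0.20 ± 0.165, that of AhR from C was −0.20 ± 0.165 (adjusted p = 1), and that of M from AhR was 0.003 ± 0.165 (adjusted p = 0.998).

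Aldh1l1, the cytosolic formyltetrahydrofolate dehydrogenase of folate metabolism, had log2 ratios of 0.003, −0.11, 0.27 and 0.099 in AhR, −0.031, −0.35, 0.32 and −0.072 in C, −0.37, 0.46, 0.37 and 0.18 in 0.5M, and 0.41, −0.14, 0.30 and 0.66 in M. All pairs of groups overlapped. The difference in 0.5M against C was 0.19 ± 0.16 (interval −0.15 to 0.54, adjusted p = 0.839), in AhR against C it was 0.099 ± 0.16 (adjusted p = 1), and in M against AhR it was 0.24 ± 0.16 (adjusted p = 0.660). M against C gave 0.34 ± 0.16.

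Aldh3a2, the fatty aldehyde dehydrogenase of the endoplasmic reticulum, had the smallest spread of the members. On replicates 1 to 4 its log2 ratio was −0.65, −0.52, −0.695 and −0.694 in AhR, −0.79, −0.75, −0.68 and −0.76 in C, −0.75, −0.73, −0.71 and −1.065 in 0.5M, and −0.62, −0.91, −0.89 and −0.75 in M. In 0.5M all 4 arrays lay below all AhR arrays, as did 3.1% of all transcripts, and the difference was −0.17 ± 0.089 (adjusted p = 0.583, limma). It was −0.098 without the arrays high in muscle markers. Its differences from C were 0.11 ± 0.089 in AhR (adjusted p = 1), −0.067 ± 0.089 in 0.5M (adjusted p = 0.907) and −0.048 ± 0.089 in M. A second, dimmer probe gave 0.2 ± 0.13 in AhR, −0.059 ± 0.13 in 0.5M and 0.084 ± 0.13 in M against C, so the 2 probes differed in sign for M.

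**Figure D3:**
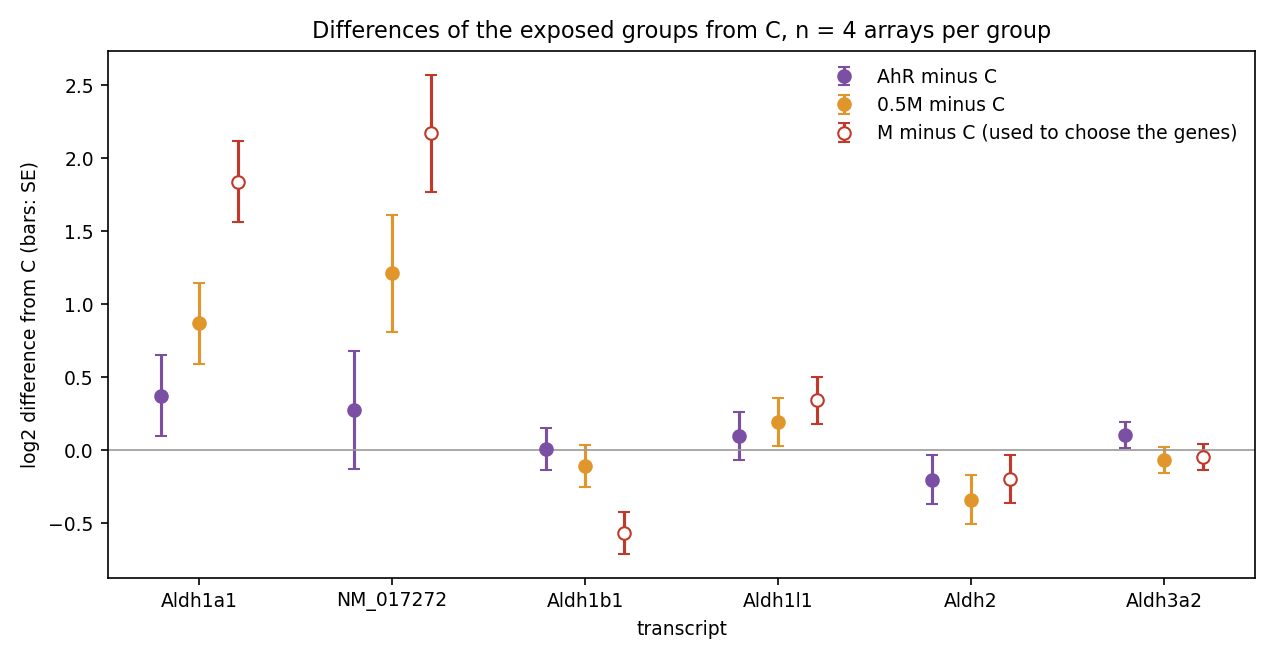
Log2 differences of AhR, 0.5M and M from C for the 6 members past the filter, with SE as bars and 4 arrays per group. The open points, M minus C, were used to choose the set and lie at 1.84 for Aldh1a1, 2.17 for NM_017272 and −0.56 for Aldh1b1.

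Aldh3a1, which oxidises aromatic and medium-chain aldehydes, was well above background on 2 of the 16 arrays, replicate 2 of M and replicate 4 of 0.5M. Its background-subtracted Cy5 intensity was 44.75 and 189 on those arrays and between −6.25 and 15 on the other 14. These are the arrays with high skeletal muscle markers, and its log2 ratio there was 0.94 and 1.60. The part of the muscle transcripts in these values was not tested. On the other 14 arrays the ratio was −0.43 to −0.048, where the probe was not well above background, so no fold is given. The 4 AhR arrays lay between −0.28 and −0.058 and the 4 C arrays between −0.43 and −0.048.

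**Figure D4:**
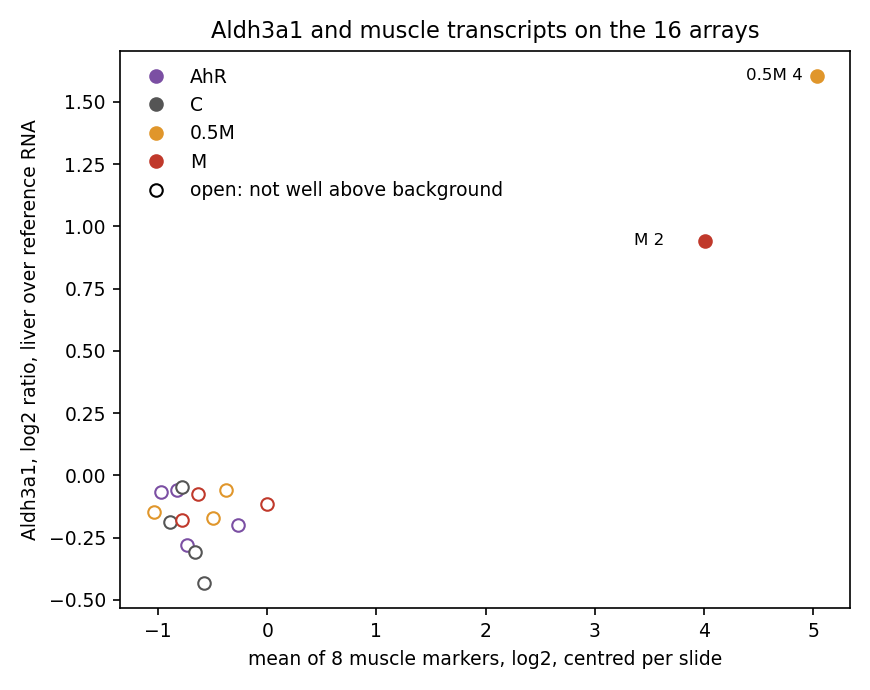
Log2 ratio of Aldh3a1 on each array against the mean of 8 skeletal muscle markers in log2 units, centred within the slide. Replicate 2 of M, at 4.01, and replicate 4 of 0.5M, at 5.03, stand apart from the other 14 arrays.

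In M against C, 2 of the 6 members past the filter were also past the threshold and higher, and none was lower. Of all transcripts 0.319% were past it (0.259% higher, 0.0609% lower). The M and C arrays did not overlap for 2 members that were higher (2.11% of all transcripts) and 1 that was lower (2.07%). As this contrast chose the members, nothing is read from these counts. M lay above 0.5M without overlap for Aldh1a1 (1.4% of all transcripts) and above AhR without overlap for Aldh1a1 and NM_017272 (1.77%). In M against AhR 1 of the 2 picked members, Aldh1a1, was past the threshold (0.266% of all transcripts), and in M against 0.5M 0 of the 2 were (0.0152%). Nothing is read from these counts either. No member that carries a test passed in the other comparisons. The count was 0 of 6 in 0.5M against C (0.0152% of all transcripts past the threshold), 0 of 6 in AhR against C (0.00761%) and 0 of 6 in 0.5M against AhR (0.0228%). Among the 4 members not picked for M it was 0 in M against 0.5M and 0 in M against AhR. At an unadjusted p under 0.05, limma gave 2 members in 0.5M against C (6.53% of all transcripts), 0 in AhR against C (3.77%) and 1 in 0.5M against AhR (9.04%). It gave 1 of the 4 in M against 0.5M (6.75%) and 1 in M against AhR (9.87%). The 2 in 0.5M against C were Aldh1a1 and NM_017272, picked on a contrast that used the same C arrays. Nothing is read from that count.

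Known targets of foreign-compound receptors rose in the same livers. The lists of such targets were drawn up with earlier results of these data known, so their counts are a description. In M against C, 4 of the 5 measured aryl hydrocarbon receptor targets rose and none fell. Of all transcripts 0.259% rose and 0.0609% fell. The median difference of the targets was 1.10 against −0.002 over all transcripts. The hydrocarbon hydroxylase Cyp1a1 rose by 4.58 ± 0.18 log2 units in M (adjusted p = 6.52e-10), by 3.74 ± 0.18 in 0.5M (adjusted p = 1.41e-08) and by 2.46 ± 0.18 in AhR (adjusted p = 7.26e-06), each against C. Cyp1a2 rose by 1.76 ± 0.17 in M (adjusted p = 3.55e-05) and Ugt1a6, a glucuronosyltransferase, by 1.10 ± 0.135 (adjusted p = 0.000665), while in AhR their differences from C were 0.21 and 0.38 (adjusted p = 1 for each).

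Of the 11 measured targets of CAR and PXR, 4 rose in M against C, beside 0.259% of all transcripts. Against C, 1 rose in 0.5M (0.0152% of all transcripts past the threshold) and 0 passed in AhR (0.00761%). Cyp2b2, the cytochrome known for its induction by phenobarbital, rose by 3.16 ± 0.22 in M (adjusted p = 1.18e-06) and by 1.87 ± 0.22 in 0.5M (adjusted p = 0.00181), and its difference in AhR was 0.26 ± 0.22 (adjusted p = 1). Cyp2c6v1 rose by 1.86 ± 0.17 in M (adjusted p = 3.55e-05). These comparisons share the C arrays. With median centring of the arrays in place of loess, 1 aryl hydrocarbon receptor target (Cyp1a1) and 0 CAR and PXR targets passed in M against C, and neither Cyp1a1 nor Cyp2b2 passed in 0.5M, nor Cyp1a1 in AhR. On slide 1 alone 1 and 1 passed in M against C, and on slide 2 alone 3 and 1. The calls of Cyp2b2 in 0.5M and of Cyp1a1 in AhR were also lost on slide 1 alone. Without the 5 arrays high in markers of another tissue, 4 and 3 passed.

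**Figure D5:**
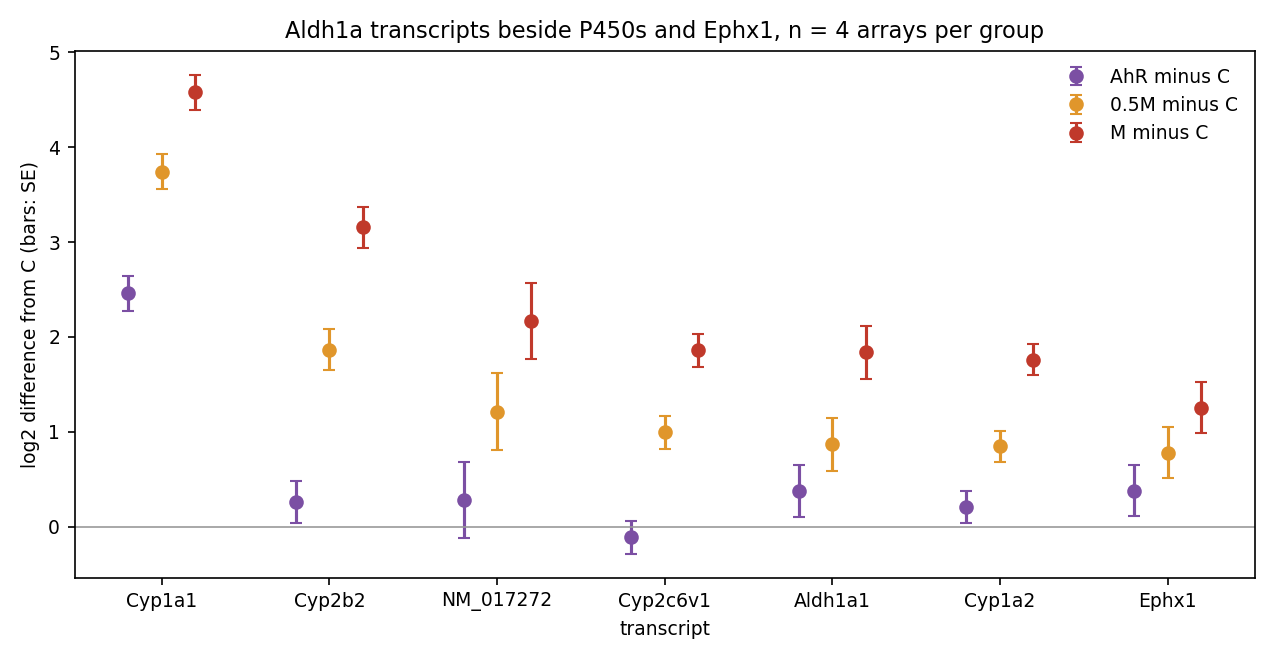
Log2 differences of AhR, 0.5M and M from C for Aldh1a1, NM_017272, Ephx1 and 4 cytochromes, with SE as bars and 4 arrays per group. Cyp1a1 lies at 2.46, 3.74 and 4.58 in that order, while Cyp2b2 lies at 0.26 in AhR and at 1.87 and 3.16 in 0.5M and M. The difference of M from C was used to choose Aldh1a1 and NM_017272.

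The transcripts with a gene symbol most like Aldh1a1 over the 16 arrays were found by the root mean square distance of log2 ratios centred within each slide. They were Ephx1, the microsomal epoxide hydrolase, at 0.33 log2 units, Cyp2c6v1 at 0.40, Cesl1 at 0.42, Cyp1a2 at 0.42 and Cyp2c7 at 0.43, which ranked 1, 3, 5, 6 and 7 among all transcripts, those without a symbol included. A transcript with no variation would lie 0.79 away. The M and C arrays that chose Aldh1a1 and NM_017272 entered these distances. Transcripts high in M were thus favoured as neighbours, and shared control is not read from either list. For NM_017272 the nearest with a symbol were Cyp2c6v1 and Cyp1a2, both at 0.56, Cyp2a3 at 0.65, Cyp2c7 at 0.66 and Ugt2b1 at 0.68, ranked 1, 2, 5, 8 and 9, with 1.02 for no variation. Aldh1a1 and NM_017272 lay 0.747 apart, which ranked 16 among 13145 transcripts from NM_017272 and 1573 from Aldh1a1. Ephx1 was 1.255 ± 0.27 higher in M than in C (adjusted p = 0.0641, limma), and its difference of 0.5M from C was 0.78. The same M and C arrays made Ephx1 a neighbour, so nothing is read from this p-value.

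Genes of neighbouring pathways mostly did not pass the test. Of 8 measured other aldehyde dehydrogenase genes (13 listed, among them further Aldh1 and Aldh3 genes), none passed in any of the 6 comparisons, and in M against C they ran from −0.149 for Aldh9a1 to 0.178 for Aldh1l2. Aldh1a2 and Aldh1a3, which also make retinoic acid, were on the array and did not pass the filter. Of 23 measured genes of retinoid handling (30 listed) none passed in any comparison. In M against C 14 were above 0 and 9 below it, with a median of 0.029. The ends were −0.406 ± 0.136 for Rdh7 (adjusted p = 0.274, limma) and 1.039 ± 0.375 for Retsat (adjusted p = 0.320). Rbp2, a retinol-binding protein, was −0.317 ± 0.087 in 0.5M against AhR (adjusted p = 0.330).

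None of the 10 measured genes of alcohol and acetaldehyde oxidation (12 listed) passed. Cyp2e1, an ethanol-oxidising cytochrome, was −0.62 ± 0.193 in 0.5M against C (adjusted p = 0.621). None of the 12 measured folate genes (17 listed) passed, and Mthfd1, an enzyme of folate interconversion, was −0.295 ± 0.092 in M against AhR (adjusted p = 0.271). Of 16 measured aldehyde and ketone reductases and related genes (19 listed), Gsta4, a glutathione transferase for lipid aldehydes, rose by 0.781 ± 0.128 in M against C (adjusted p = 0.0105) and by 0.712 ± 0.128 in M against AhR (adjusted p = 0.0275), and no other gene of the list passed. The first call was lost with median centring, with the scanner's own ratios, on either slide alone and without replicate 4 of C, and the difference was 0.457 to 0.911 over all settings. The call in M against AhR was lost in 12 of the 29 settings, among them every one that left out an AhR array and those without replicates 1, 3 and 4 of M, with differences of 0.453 to 0.842. In M against C the list ran from −0.41 ± 0.143 for Dcxr (adjusted p = 0.300, limma) to 1.158 ± 0.341 for Akr7a3 (adjusted p = 0.206).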

How the data were processed

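Liver RNA of 4 groups was measured on 16 arrays of 62976 spots. The deposited scan files (Agilent Feature Extraction 10.7.3.1) hold median signals and backgrounds of both channels as intensity, the ratio as log10 and quality marks of the unit other as 0 or 1, per the file headers. The authors' deposited values on the log2 scale served as an alternative. They correlated at 0.977 to 0.998 with loess ratios made from the scan file of the same array without background correction.

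From the scan files, medians were corrected for background by normexp with an offset of 50 and then by loess on each array, in limma 3.58.1 (R 4.3.3, with version 1.17.8 of the data.table package). Spots marked non-uniform or as outliers were dropped and the rest averaged per probe. Probes entered if they were well above background in Cy5 on 4 or more of the 16 arrays, which 14524 of 30367 did, and 12 lacked values. Symbols came from RefSeq accessions (18004 probes with, 12363 without). The brightest probe stood for a gene, leaving 13146 transcripts. One limma fit over all arrays held the groups and the slide. Two-sided p-values were adjusted by the Benjamini-Hochberg method within each of the 6 comparisons, at a threshold of 0.05, and values after ± are SE unless marked SD.

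The members and lists were chosen with earlier results of these data known. Named are all members, up to 3 genes of each list past the threshold or else the gene with the smallest p, and for Aldh1a1 and NM_017272 the 5 most like transcripts that have a symbol. Others at the ends of a list were named after their values were seen. The fit was also run on simulated data with independent noise on each array. Such data cannot show the effect of shared litters or of arrays high in markers of another tissue. Alternatives changed the background correction, normalization, filter, slide term, source of ratios, weights, probe choice and arrays used. No 2 arrays held the same values (highest correlation of log2 ratios between arrays 0.9175). The replicate numbers come from the labels, which do not say that they pair arrays, and arrays of a number share a slide. Over the 12 same-number pairs among M, AhR and C the correlation of deviations from the group means was 0.129 to 0.458, all over 0.1 (−0.033 to 0.216 after centring within slides). Over the 12 pairs with 0.5M it was −0.226 to 0.379, with 4 over 0.1 (−0.395 to 0.088 after centring within slides). After that centring, both same-number pairs of any 2 groups on a slide have the same value, as each group has 2 arrays there. The values without centring include the shared slide, so pairing by number beyond the slide was not established. The fit with the number as a block is an alternative. The number of arrays limits the precision.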

Additional observations from a re-analysis of the deposited data

Results flagged for a closer look

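In 4 of 28 groups of 4 arrays, 1 array stood far from the other 3 by Dixon's criterion, which chance alone meets in about 1 in 20 groups. Aldh2 was −0.488 on replicate 2 of C, the array with high fat markers, with a gap of 0.894 of the range of the group. Aldh3a1 was 0.941 on replicate 2 of M (gap 0.905) and 1.603 on replicate 4 of 0.5M (gap 0.937), both arrays with high skeletal muscle markers. Aldh3a2 was −1.065 on replicate 4 of 0.5M (gap 0.895). The part of the muscle and fat markers in these values was not tested.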

How the results depend on the processing

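Under the 29 alternatives, the differences of Aldh1a1 and NM_017272 between M and C kept their sign, at 1.546 to 2.032 and 1.688 to 2.631. Leaving out each array in turn gave 1.549 to 2.032 for Aldh1a1 and 1.688 to 2.522 for NM_017272. In the other 5 comparisons the count of members that carry a test and passed (limma) was 0 in each of these alternatives. Aldh1a1 and NM_017272 are outside that count in M against 0.5M and M against AhR. With the replicate block the differences between M and C were 1.839 and 2.171, no member that carries a test passed, and 41 transcripts passed in M against C and 7, against 2 without it, in M against 0.5M. Of the named calls, the block ended that of Ugt1a6 in M against AhR, with an adjusted p of 0.0144 to 1 over the alternatives, and no other. Over all transcripts, 42 passed in M against C, against 1 with median centring, 4 on slide 1 alone, 7 on slide 2 alone, 20 with scanner ratios, 66 with array weights and 22 to 53 when an array was left out. In M against AhR 35 passed, against 0 with median centring, 0 on slide 1 alone, 13 on slide 2 alone, 19 with scanner ratios, 19 without the 5 arrays high in markers of another tissue, 64 with array weights and 10 to 35 when an array was left out. The other 34 differences gave 986 values, of which 959 moved by less than the spread between replicates, 27 moved by more and 50 had the opposite sign, none of them past the threshold in any setting that had a test. The same settings were run on the called receptor targets and Gsta4 by a choice made after seeing the data. The causes were not tested.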
